A study of Mus musculus with 11 samples.

Results

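Gkn1 and Gkn2 (gastrokines 1 and 2), Tff1 (trefoil factor 1), Mucl3 (mucin-like 3) and Aqp8 (aquaporin 8) are 5 genes that were read together in mouse naive extra-embryonic endoderm (nEnd), cultured stem cells that stand in for the primitive endoderm (PrE), the layer of the blastocyst that forms the yolk sac endoderm. They were 5 of the 48952 genes in the bulk RNA-seq table and 5 of the 32285 genes in the single-cell matrices. The list was drawn up with their levels in both kinds of data known, among them the differences between endoderm cells with and without exposure to 4-hydroxytamoxifen (4OHT). Their single-cell values are therefore given as a description, with no test.

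Gastrokines and trefoil factors are small secreted proteins best known from the stomach, where surface mucous cells release them into the mucus layer. Gkn1 and Gkn2 share a BRICHOS domain, and Tff1 carries the trefoil domain of a peptide family linked to mucosal repair. Mucl3 encodes a mucin-like protein, and Aqp8 a membrane channel for water and small solutes. Cells of the PrE are usually known by others, by transcription factors such as GATA6 and SOX17 and by a basement membrane rich in laminin and collagen IV.

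A bulk and a single-cell set of libraries were used, both from nEnd grown over feeders in RACL medium, which supplies Activin A, LIF and the GSK3 inhibitor CHIR99021. The bulk set came from untreated nEnd in which an OCT4-mCherry fusion reports OCT4 protein, sorted into cells positive for the surface receptor PDGFRA alone (Pdgfra+), cells positive for PDGFRA and the reporter (DP) and cells positive for the reporter alone (Oct4+), with 3 libraries of each. The single-cell set came from Oct4LOF nEnd (cell line EPUc), made from embryonic stem cells that carry a homozygous, 4OHT-inducible loss of function of Oct4, the gene listed as Pou5f1. Cells positive for PDGFRA were isolated from it, cultured with 4OHT (+4OHT) or without treatment (-4OHT) and sorted again for live cells, with 1 library per condition. Both single-cell libraries carry the deletion alleles, and no line without them was exposed to 4OHT, so that the effects of 4OHT and of the loss of Oct4 cannot be told apart. The study describes the bulk libraries of a group as biological replicates, and the p-values cover the spread between these libraries.

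The genes lay at 4 places in the genome. Coordinates are those of GENCODE vM21 on GRCm38 (mm10). Gkn1 (ENSMUSG00000030050, 6 exons) ran on the minus strand at chr6:87345650-87350942 and Gkn2 (ENSMUSG00000030049, 6 exons) on the plus strand at chr6:87373357-87379497. The gastrokine pair was thus divergent, with 22414 bases between the gene bodies. Gkn3, the gastrokine next to Gkn2, began after a further 3758 bases. Tff1 (ENSMUSG00000024032, 3 exons) ran on the minus strand at chr17:31161395-31165277, 17112 bases from Tff2. Mucl3 (ENSMUSG00000073408, 3 exons) was on the minus strand at chr17:35635752-35643695 and Aqp8 (ENSMUSG00000030762, 6 exons) on the plus strand at chr7:123462291-123468004.

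Since Gkn1 and Gkn2 are the pair found in the same cells at the highest multiple of the product of their single shares, the sequences before their starts are shown. RefSeq promoters on GRCm38.p6 were given for 4 of the 5 genes, Gkn1, Gkn2, Mucl3 and Aqp8. The 250 bases before each RefSeq start were searched on both strands for 7 short motifs: AGATAA and TGATAA, as read by the GATA factors of the endoderm, TATAAA of the core promoter, TGTTTNC as read by forkhead factors, ATTGTT by SOX factors, GTTAAT by HNF1 factors and ATGCAAAT by OCT4 and its relatives. The stretches printed run 5′ to 3′ on the strand of the gene, end at the base before the GENCODE start, and carry every match in capitals, with the reverse complement where the match was on the other strand. The stretches lie at chr6:87350943-87351165 (minus strand, Gkn1), chr6:87373115-87373356 (plus strand, Gkn2) and chr17:35643696-35643945 (minus strand, Mucl3).
Gkn1: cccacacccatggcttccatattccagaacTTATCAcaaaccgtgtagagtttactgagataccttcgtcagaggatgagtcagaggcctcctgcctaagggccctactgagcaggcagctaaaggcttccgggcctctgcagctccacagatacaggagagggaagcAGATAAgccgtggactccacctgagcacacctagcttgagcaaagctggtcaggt
Gkn2: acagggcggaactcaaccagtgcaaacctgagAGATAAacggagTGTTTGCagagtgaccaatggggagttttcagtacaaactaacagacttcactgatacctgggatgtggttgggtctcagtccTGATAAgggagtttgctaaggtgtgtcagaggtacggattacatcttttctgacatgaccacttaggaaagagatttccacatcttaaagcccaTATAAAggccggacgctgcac
Mucl3: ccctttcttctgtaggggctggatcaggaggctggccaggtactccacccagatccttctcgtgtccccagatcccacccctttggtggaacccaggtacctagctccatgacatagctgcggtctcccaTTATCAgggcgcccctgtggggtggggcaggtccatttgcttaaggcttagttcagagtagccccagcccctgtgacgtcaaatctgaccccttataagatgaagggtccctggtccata

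Counted back from the RefSeq start, the Gkn1 stretch held AGATAA at -82 to -77 and the complement of TGATAA at -220 to -215. The Gkn2 stretch held AGATAA at -218 to -213, TGATAA at -123 to -118, TATAAA at -29 to -24 and TGTTTNC at -206 to -200. Mucl3 held the complement of TGATAA at -120 to -115, and none of the 7 motifs was found before Aqp8. Of 32851 promoters of that length, 9.99% held AGATAA, 7.94% TGATAA, 12.4% TATAAA and 17.8% TGTTTNC, while 9.42% held ATTGTT, 6.43% GTTAAT and 1.60% ATGCAAAT. AGATAA and TGATAA stood together in 438 promoters (1.33%), among them those of Gkn1 and Gkn2. A match of letters is not a binding site, and no factor was mapped here.

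Pou5f1 was read first in every library. Its bulk level, in reads scaled to a library total of 1000000 after TMM normalization (CPM), was 26.4, 8.37 and 17.6 in Pdgfra+, 132, 245 and 310 in DP and 1137, 944 and 861 in Oct4+, in the order of replicates 1 to 3. The 3 groups did not overlap and followed the sort. In the single-cell libraries, for which CPM are UMIs scaled to 1000000 of the cells' own total, barcodes with at least 3000 CPM of Sparc, Col4a1 and Col4a2 together (basement membrane genes that PrE cells make in quantity) were taken as endoderm cells, a rule that left 1586 of 6896 barcodes in -4OHT (23.0%) and 6825 of 7283 in +4OHT (93.7%). In these cells Pou5f1 was at 16.1 CPM in -4OHT and 2.21 in +4OHT, and the share of cells with a UMI was 18.7% and 2.48%. Barcodes outside the class held 46.9 CPM of Pou5f1 in -4OHT and 17.2 in +4OHT. Whether their free RNA or doublets added to the endoderm counts was not tested. The libraries read the 3′ ends of transcripts, and the sources used here do not say which part of Oct4 is deleted. The Pou5f1 count may therefore not read the deletion itself.

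The endoderm class was read for 12 endoderm markers, among them Sparc, Col4a1 and Col4a2, which define it. All 12 had UMIs in both libraries, and together they made up 15376 CPM in -4OHT and 23483 in +4OHT. Sparc, Col4a1 and Col4a2 held 7333, 2789 and 1373 CPM of this in -4OHT and 11120, 4725 and 2491 in +4OHT. The sums were thus largely set by the rule and are no check of it. Near the threshold, 35 barcodes of -4OHT lay between 2500 and 3000 and 37 between 3000 and 3500, against 33 and 33 in +4OHT. The +4OHT barcodes just inside were poor, with a median of 1544 UMIs and 63.6% mitochondrial UMIs, while the whole class had medians of 12078 UMIs and 6.21% in +4OHT and 14494 UMIs and 6.56% in -4OHT. Only 21 barcodes of the 14179 in all occurred in both libraries, and no doublets were removed.

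Gkn1, Gkn2, Tff1 and Mucl3 were rare transcripts in -4OHT endoderm cells and among the genes that stood highest in +4OHT relative to -4OHT, while Aqp8, already abundant, was less than 2-fold higher. Tff1 was at 5.94 CPM in -4OHT (151 UMIs) and 155 in +4OHT (14263 UMIs), a ratio of 26.1 with a 95% counting interval of 22.2 to 30.8. Gkn2 was at 5.86 and 138 CPM, a ratio of 23.6 (20.1 to 28.0), and Gkn1 at 4.88 and 97.7, a ratio of 20.03 (16.8 to 24.1). Ranked by this ratio, Tff1, Gkn2 and Gkn1 were the first 3 of the 6803 genes that reached 20 CPM in at least one library.

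Mucl3 ranked 5, with 3.93 CPM in -4OHT and 39.9 in +4OHT, a ratio of 10.2 (8.32 to 12.5). Aqp8 ranked 651, with 176 and 332 CPM and a ratio of 1.89 (1.83 to 1.95). Thus 4 of the 5 genes stood at least 2-fold higher in +4OHT, where 8.04% of the 6803 genes did. The list was chosen on this contrast, so that nothing is read from that count. The median log2 ratio was 4.32 for the 5 genes and 0.15 for all 6803. With 1 library per condition the intervals cover counting error only, and there is no replicate check.

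The make-up of the class differed between the libraries. Amn and Cubn, which encode the endocytic receptor pair of the visceral endoderm, reached 100 CPM together in 926 of the 1586 -4OHT cells and in 405 of the 6825 +4OHT cells. Among the remaining 660 and 6420 cells, the ratio was 15.0 for Gkn1, 13.4 for Gkn2, 13.9 for Tff1, 4.85 for Mucl3 and 1.91 for Aqp8. The ratios of the first 4 genes were therefore lower within this narrower class. In it, 2.03% of 6738 genes were at least 2-fold higher in +4OHT.

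A few barcodes carried most of the -4OHT signal of Gkn1 and Gkn2. The 5 cells richest in each gene held 84.7% of the -4OHT UMIs of Gkn1, 72.5% of Gkn2, 49.0% of Tff1 and 40% of Mucl3, but 5.09% of Aqp8. Without the 5 richest barcodes of each library, the ratio was 118 for Gkn1 (75.7 to 197), 78.2 for Gkn2, 48.4 for Tff1, 16.4 for Mucl3 and 1.96 for Aqp8. The size of the gastrokine and Tff1 ratios thus rested on a handful of -4OHT cells. In +4OHT the 5 richest cells held only 9.27% of the UMIs of Gkn1, 8.75% of Gkn2 and 5.17% of Tff1. Leaving such cells out therefore raises these ratios and cannot test their direction. Over all barcodes in place of endoderm cells, the ratios were 79.2 for Gkn1, 87.1 for Gkn2, 105 for Tff1, 36.2 for Mucl3 and 7.37 for Aqp8.

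The share of endoderm cells with at least 1 UMI moved in the same direction. It was 1.01% in -4OHT and 19.4% in +4OHT for Gkn1, 1.70% and 20.6% for Gkn2, 3.28% and 30.2% for Tff1 and 3.40% and 22.7% for Mucl3. For Aqp8 it was 61.9% (95% exact binomial interval 59.4 to 64.3) and 64.6% (63.4 to 65.7), and these intervals overlapped. At 3 UMIs or more, the shares were 0.441% and 8.62% for Gkn1, 0.631% and 9.93% for Gkn2, 0.757% and 15.3% for Tff1, 0.378% and 6.48% for Mucl3 and 33.9% and 40.4% for Aqp8.

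To set depth aside, each cell was thinned to 5000 UMIs, which left out 120 shallower cells in -4OHT and 439 in +4OHT. The shares then were 0.614% and 13.7% for Gkn1, 1.30% and 14.2% for Gkn2, 1.57% and 21.4% for Tff1, 2.11% and 13.7% for Mucl3 and 41.1% and 50.7% for Aqp8. Thinned to the same depth, Aqp8 too was found in a larger share of the +4OHT cells.

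Free RNA in droplets can give UMIs to cells that do not make a transcript, so that the shares were set beside those of barcodes outside the class with at least 500 CPM of Nanog, Esrrb, Zfp42, Tdgf1 and Dppa5a together, called epiblast-like here. The -4OHT library held 5023 such barcodes (median 16569 UMIs), in which the 12 endoderm markers summed to 323 CPM. None had a UMI of Gkn1, which allows a share of barcodes with a UMI of up to 0.0597% by the limit of 3 counts (the exact interval reaches 0.0734%), and the shares were 0.0796% for Gkn2, 0.0199% for Tff1, 0.299% for Mucl3 and 2.87% for Aqp8. All 5 lay below the shares of -4OHT endoderm cells.

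The +4OHT library offered a weaker comparison, since Dppa5a alone was at 638 CPM in its endoderm cells, and the barcodes that met the rule outside the class still held 1088 CPM of the 12 endoderm markers. These 99 barcodes (median 4788 UMIs) had shares of 5.05% for Gkn1, 8.08% for Gkn2, 8.08% for Tff1 and 17.2% for Aqp8, while none had Mucl3, which allows up to 3.03% by the limit of 3 counts (the exact interval reaches 3.66%). These shares lay below those of the endoderm cells of the same library, whose median depth was higher. Thinned to 5000 UMIs, 49 of the barcodes remained, with shares of 2.04% for Gkn1 (exact interval up to 10.9%), 4.08% each for Gkn2, Tff1 and Aqp8 (up to 13.98%) and 0% for Mucl3 (up to 7.25%), against the thinned endoderm shares of 13.7% for Gkn1, 14.2% for Gkn2, 21.4% for Tff1, 50.7% for Aqp8 and 13.7% for Mucl3. At 3 UMIs or more, none of the 99 had Gkn1, Gkn2 or Mucl3, 3.03% had Tff1 and 1.01% had Aqp8.

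**Figure D1:**
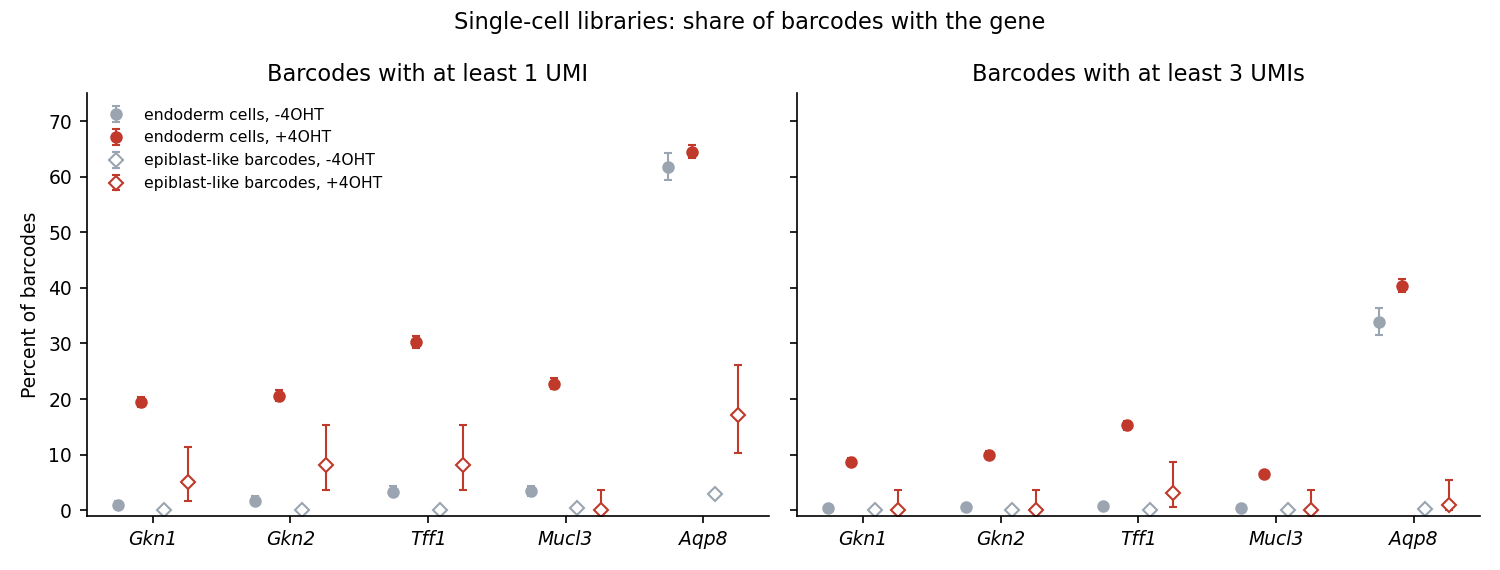
Share of barcodes (percent, y axis) with at least 1 UMI (left) or at least 3 UMIs (right) of each gene, in endoderm cells (filled circles) and barcodes outside the class that met the epiblast-like rule (open diamonds) of the -4OHT (grey) and +4OHT (red) libraries. Bars are 95% exact binomial intervals, which cover counting error only. In +4OHT endoderm cells, 19.4% had Gkn1 and 30.2% Tff1, while Aqp8 was found in over 60% of endoderm cells in both libraries.

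Within +4OHT endoderm the transcripts were unevenly spread over the cells. The richest cell held 203 UMIs of Gkn1, 355 of Gkn2, 183 of Tff1, 23 of Mucl3 and 90 of Aqp8. The 69 richest of the 6825 cells (1%) held 41.5% of all Gkn1 UMIs, 43.7% of Gkn2, 30.2% of Tff1, 19.1% of Mucl3 and 10.4% of Aqp8. The gastrokines were thus the most concentrated of the 5 and Aqp8 the least, although the 5 differ in their number of UMIs, which bears on such shares.

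At least 10 UMIs were found in 240 cells for Gkn1, 289 for Gkn2, 381 for Tff1, 31 for Mucl3 and 1054 for Aqp8. In -4OHT the same number was reached in 5 cells for Gkn1, 3 for Gkn2, 4 for Tff1, 2 for Mucl3 and 103 for Aqp8. The richest -4OHT cell held 52 UMIs of Gkn1 and 48 of Gkn2. High levels of the gastrokines were thus found in single cells of the untreated library as well, at a much lower frequency.

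**Figure D2:**
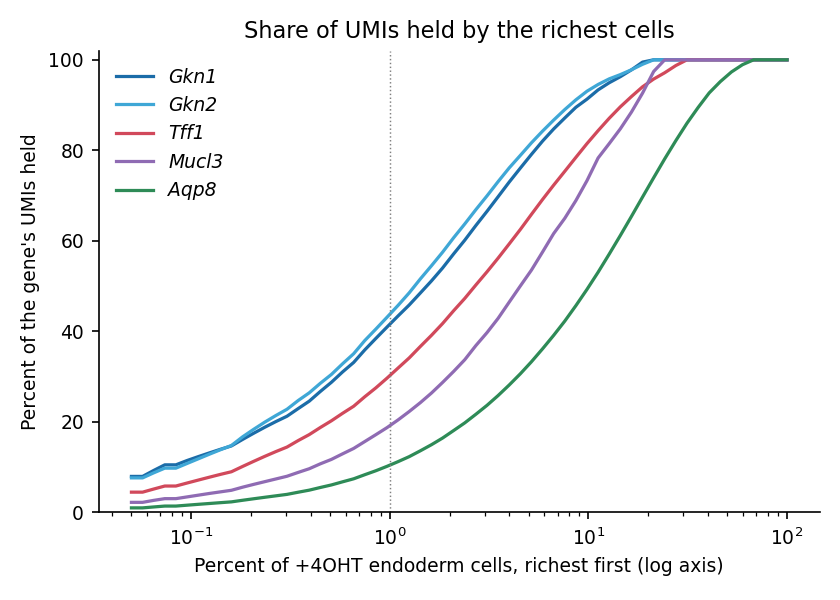
Cumulative share of each gene's UMIs (percent, y axis) held by the +4OHT endoderm cells richest in that gene (percent of 6825 cells, log axis). The dotted line marks 1% of cells, where the Gkn1 and Gkn2 lines stand at 41.5% and 43.7% and the Aqp8 line at 10.4%.

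Gkn1 and Gkn2 were found in the same cells far more often than the product of their single shares gives. After thinning to 5000 UMIs, 555 of the 6386 +4OHT cells had both, where the product gives 125 (4.46 times). These were 63.3% of the cells with Gkn1 and 61.2% of those with Gkn2. Tff1 stood with Gkn1 in 463 cells against 188 from the product (2.46 times) and with Gkn2 in 478 against 194 (2.46 times).

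Mucl3 was found with Gkn1 in 271 cells against 121 (2.25 times), with Gkn2 in 292 against 125 (2.34 times) and with Tff1 in 360 against 188 (1.91 times). Aqp8, which most cells carry at full depth, went with Gkn1 and Gkn2 at 1.51 times the product each and with Tff1 and Mucl3 at 1.34 times each. A gene found in 50.7% of the thinned cells cannot reach the multiples of the rarer pairs, so that these values do not rank Aqp8 against them. It was found in 76.4% of the cells with Gkn1 and 76.7% of those with Gkn2. All 10 pairs lay above the product. At 3 UMIs or more and without thinning, the gastrokine pair was found in 448 cells against 58.4 from the product. In -4OHT, the thinned cells held 9 with Gkn1 and 19 with Gkn2, of which 7 had both.

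Counted over Gkn1, Gkn2, Tff1 and Mucl3, the thinned +4OHT cells split into 4006 with none of the 4 genes (62.7%), 1357 with 1 (21.2%), 535 with 2 (8.38%), 348 with 3 (5.45%) and 140 with all 4 (2.19%). The products of the single shares give 50.2%, 38.0%, 10.5%, 1.28% and 0.0575%. Cells with none and cells with 3 or 4 were thus more frequent than the products, and cells with 1 or 2 less so. Of the 1466 thinned -4OHT cells, 1405 had none, 47 had 1, 9 had 2, 3 had 3 and 2 had all 4. At full depth, 2 or more of the 4 were found in 24.8% of +4OHT cells (1696) and in 1.51% of -4OHT cells (24), which after thinning became 16.0% and 0.955%.

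**Figure D3:**
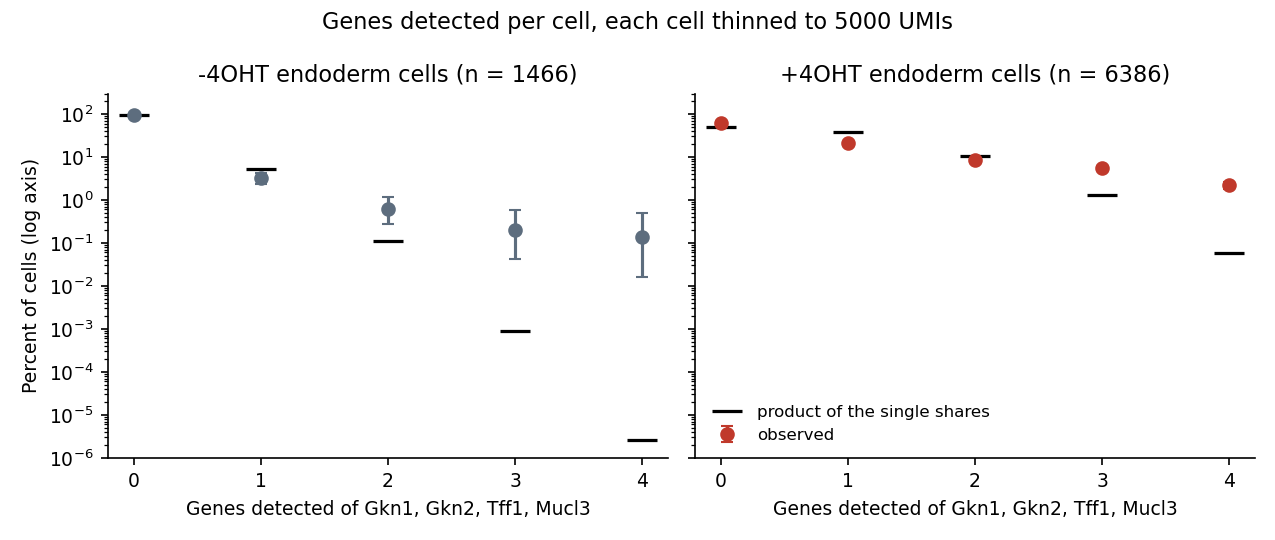
Share of endoderm cells (percent, log axis) by the number of genes detected among Gkn1, Gkn2, Tff1 and Mucl3, after thinning to 5000 UMIs per cell, in -4OHT (left, n = 1466 cells) and +4OHT (right, n = 6386 cells). Points are observed shares with 95% exact binomial intervals, and black dashes the product of the single shares. All 4 genes were found in 2.19% of +4OHT cells, where the product gives 0.0575%.

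The levels per cell, as log2(UMIs per 10000 + 1), gave the same picture as a description across cells of 1 library, which share its preparation and its depth range. Pearson's r of Gkn1 with Gkn2 was 0.80 over 6825 +4OHT cells and 0.81 over 1586 -4OHT cells. In +4OHT the other 9 pairs lay between 0.22 (Mucl3 with Aqp8) and 0.49 (Gkn2 with Tff1). In -4OHT they lay between 0.04 (Gkn1 with Aqp8) and 0.45 (Gkn1 with Mucl3). The summed level of the 5 genes had an r of -0.07 with the UMIs per cell and of -0.07 with the mitochondrial share in +4OHT.

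Among 11573 genes found in at least 2% of +4OHT endoderm cells, the 10 whose level was most like the summed level of the 5 were named, with r in +4OHT and then in -4OHT. Srgn, which encodes the proteoglycan serglycin and is a parietal endoderm marker, stood first at 0.50 and 0.38. Ctsl (the lysosomal protease cathepsin L) followed at 0.47 and 0.36, Btg1 (an antiproliferative factor) at 0.44 and 0.21, Cd63 (a tetraspanin of late endosomes) at 0.43 and 0.30 and Itga6 (an integrin subunit for laminin) at 0.43 and 0.16.

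The others were Klf4 (a zinc finger transcription factor, 0.42 and 0.08), Prr13 (0.41 and 0.21), Tax1bp3 (0.41 and 0.18), Psap (prosaposin, 0.41 and 0.13) and B2m (the light chain of MHC class I, 0.40 and 0.23). All 10 had a lower r in -4OHT, which their choice by r in +4OHT favours, so that nothing is read from it. The sum in -4OHT is mostly Aqp8, and its part in these values was not tested. Over all endoderm cells, Srgn and Ctsl were no higher in +4OHT than in -4OHT, with ratios of 0.890 and 0.841. Psap, Btg1, Prr13, Klf4 and Itga6 stood 3.07, 2.60, 2.56, 2.49 and 2.46 times higher. Where Amn and Cubn were low, Srgn was higher in +4OHT, at 644 CPM in -4OHT and 1147 in +4OHT, a ratio of 1.78 (1.73 to 1.83).

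Cells that held more of the 4 genes also held more Aqp8. Sorted by the number of genes detected from 0 to 4, the thinned +4OHT cells had 209, 404, 594, 981 and 1143 CPM of Aqp8. Itga6 ran from 44.0 at none to 277 at all 4, Klf4 from 360 to 1031, Srgn from 911 to 2691 and Ctsl from 3012 to 6949. These 4 genes were named for their likeness to the same cells, so that their rise is not independent of the rule.

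The 16 parietal endoderm genes summed to 24504 CPM in cells with none of the 4 and to 39700 in cells with all 4, and the 12 endoderm markers to 21844 and 33028. Both lists hold Sparc, Col4a1 and Col4a2, which define the class, and Lama1 and Lamb1. Over all +4OHT endoderm cells, Sparc, Col4a1 and Col4a2 held 11120, 4725 and 2491 of the 26730 CPM of the parietal list. These rises are therefore not separate results, and the part of the other parietal genes was not read. The 22 visceral endoderm genes went from 1674 to 1372 and the 10 epiblast-like genes from 728 to 379. Median depth fell from 13330 to 8877 UMIs and the median mitochondrial share went from 6.12% to 6.82% along the same classes, and the part of these in the result was not tested.

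**Figure D4:**
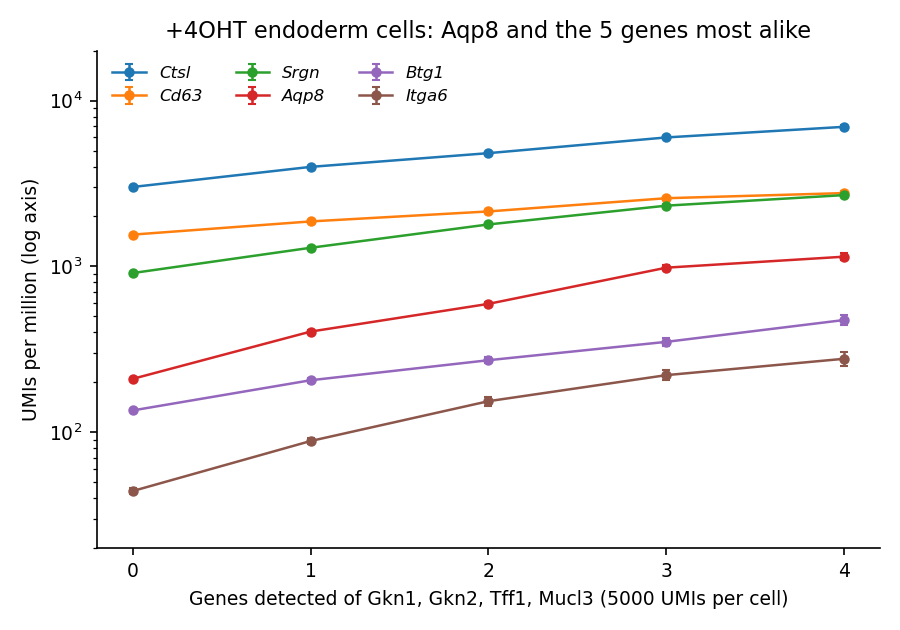
CPM (log axis) of Aqp8 and of the 5 genes most like the summed level, in thinned +4OHT endoderm cells grouped by how many of Gkn1, Gkn2, Tff1 and Mucl3 were detected. Bars are 95% Poisson intervals and cover counting error only. All 6 lines rise from left to right, Aqp8 from 209 to 1143.

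Other stomach and mucus genes were mostly scarce. Of a list of 37 such genes, 3 reached 20 CPM in either class of endoderm cells. Psca, a surface protein of stomach and bladder epithelium, was at 2.20 in -4OHT and 23.5 in +4OHT, a ratio of 10.7 (8.20 to 14.2), and Foxa3, a forkhead factor, at 9.40 and 20.6, a ratio of 2.19 (1.91 to 2.52). Tspan8, a tetraspanin, was at 20.4 and 25.4, a ratio of 1.25 (1.13 to 1.37). Where Amn and Cubn were low, the ratios were 5.23 for Psca, 1.27 for Foxa3 and 1.12 for Tspan8. Of 11 other aquaporin genes, none reached that level.

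The nearest relatives of the listed genes, named after their values were seen, stayed low. Tff2 was at 0.983 CPM in -4OHT and 6.46 in +4OHT and Tff3 at 1.57 and 6.79. Gkn3 had no UMI in -4OHT and 7 UMIs in +4OHT. Gkn3 thus stayed near 0 beside its neighbour Gkn2.

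Lists of other cell types were read the same way, as counts of genes at 20 CPM or more that stood at least 2-fold apart. Of all 6803 genes at that level, 547 were higher and 225 lower in +4OHT. Among 16 parietal endoderm genes, 4 were higher in +4OHT (Thbd, 7.57 times, Nid1, 3.34, Plat, 2.98, and Snai1, 2.66) and Hspg2 was lower (0.42). Where Amn and Cubn were low, these ratios were 3.12 for Thbd, 2.27 for Nid1, 1.31 for Plat, 2.97 for Snai1 and 0.91 for Hspg2. Among 12 visceral endoderm genes, 2 were higher (Rbp4, 3.21, and Bmp2, 3.04) and 4 lower (Amn, 0.013, Cubn, 0.038, Apoe, 0.142, and Lrp2, 0.40). In the cells low in Amn and Cubn, the ratio was 1.45 for Rbp4, 2.24 for Bmp2, 0.347 for Apoe and 0.93 for Lrp2. Of the 12 p53 and stress genes, 5 were higher and none lower, led by Fos (4.95), Jun (3.87) and Atf3 (3.13), early response genes. All 14 genes of that list summed to 1369 CPM in -4OHT and 2211 in +4OHT. In the cells low in Amn and Cubn, these sums were closer, at 1847 and 2238 CPM.

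Of 12 endoderm markers, 2 were higher (Sox17, 2.58, and Foxa2, 2.48) and 1 lower (Sox7, 0.42). Of 5 epiblast-like genes all 5 were lower, and of 3 gut epithelium genes Krt19 was higher (2.21). Where Amn and Cubn were low, the ratio was 1.68 for Sox17, 1.53 for Foxa2, 0.72 for Sox7 and 1.06 for Krt19. Of 3 feeder fibroblast genes 1 was higher, and the 10 genes of that list summed to 105 CPM in -4OHT and 192 in +4OHT. In the cells low in Amn and Cubn, these sums were 213 and 199 CPM. No trophectoderm or two-cell-like gene reached 20 CPM. Whether any of these shifts had a part in the levels of Gkn1, Gkn2, Tff1 and Mucl3 was not tested.

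The bulk libraries asked whether the same genes followed the sort in cells that kept Oct4. All 5 were higher in Pdgfra+ and in DP than in Oct4+, and none was separated between DP and Pdgfra+ by the fit without pairing. In the bulk samples, fewer cells that express a gene and less RNA of it per cell cannot be told apart. Tests were edgeR's quasi-likelihood test across 14185 genes with Benjamini-Hochberg adjustment, and a gene passed at an adjusted p below 0.05 and a log2 fold change above 1.5 in size. All 5 genes entered the test, Gkn1, Gkn2, Tff1 and Mucl3 through their counts in Pdgfra+ and DP, since they were near 0 in Oct4+.

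Gkn1 was at 13.1, 2.59 and 5.22 CPM in Pdgfra+ (replicates 1 to 3), at 13.0, 1.53 and 1.83 in DP, and had 0, 2 and 0 reads in Oct4+. Gkn2 was at 16.1, 2.49 and 6.37 CPM in Pdgfra+, at 22.1, 2.36 and 2.22 in DP, and had 0, 3 and 1 reads in Oct4+. For both, Pdgfra+ and DP overlapped and all 6 libraries lay above Oct4+.

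Tff1 was at 5.98, 0.598 and 2.92 CPM in Pdgfra+, at 5.98, 1.06 and 1.44 in DP, and had 4, 3 and 0 reads in Oct4+. Mucl3 was at 18.2, 2.19 and 17.2 CPM in Pdgfra+, at 9.23, 1.06 and 1.96 in DP, and had 6, 6 and 5 reads in Oct4+. Both followed the gastrokines in having their lowest Pdgfra+ level in replicate 2 and their highest DP level in replicate 1.

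Aqp8 was at 274, 118 and 106 CPM in Pdgfra+, at 373, 226 and 227 in DP, and had 20, 170 and 6 reads in Oct4+. One Oct4+ library, replicate 2, thus carried most of the Oct4+ reads of Aqp8, at 16.8 CPM, still below every Pdgfra+ and DP library.

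**Figure D5:**
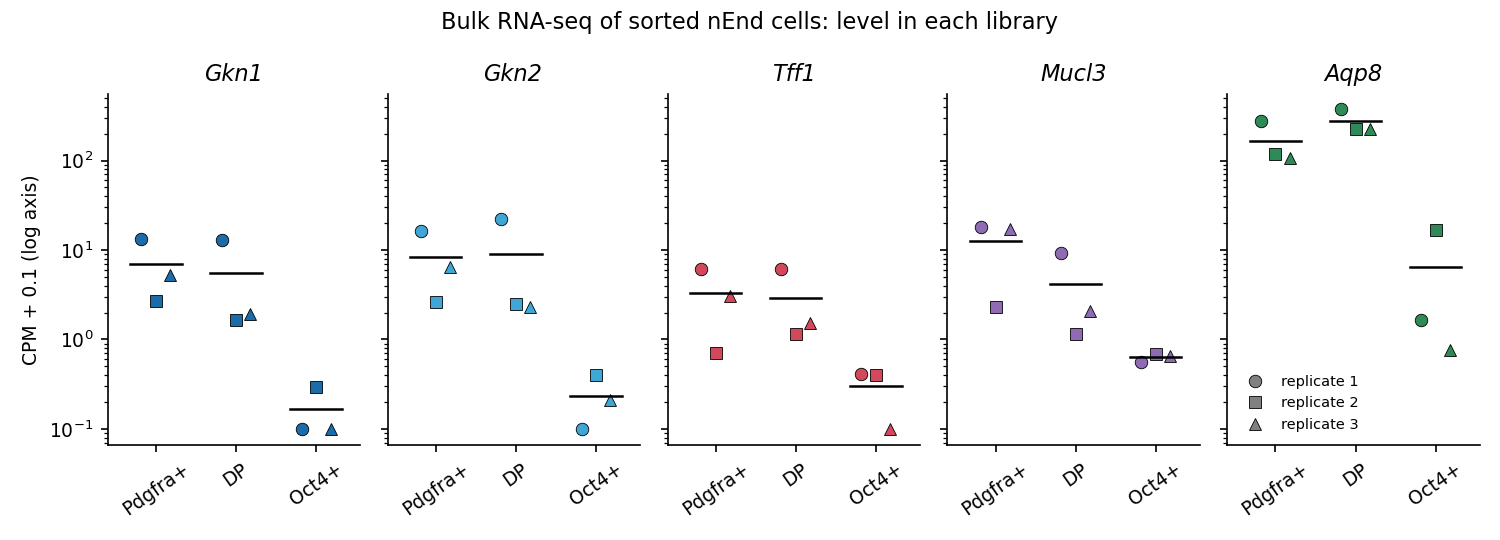
Level of each gene in the 9 bulk libraries (CPM + 0.1, log axis), with replicates 1, 2 and 3 as circles, squares and triangles and the group mean as a line. All 5 genes lie lower in every Oct4+ library than in any Pdgfra+ or DP library, and replicate 1 is the highest library of Pdgfra+ and of DP for each gene.

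Between DP and Pdgfra+, none of the 5 genes passed the threshold, where 552 of 14185 genes did (3.89%), 3.20% higher and 0.691% lower in DP. Gkn1 was at 5.44 ± 6.52 CPM in DP and 6.96 ± 5.45 in Pdgfra+ (SD, n = 3), a log2 fold change of -0.35 with an SE of 0.86 (adjusted p = 0.832 by edgeR). Gkn2 gave 0.10 with an SE of 0.92 (adjusted p = 0.955) and Tff1 -0.15 with an SE of 0.86 (adjusted p = 0.929). The 95% interval ran from -2.27 to 1.57 for Gkn1, so that these libraries leave room for a difference of either sign. Before adjustment none of the 5 reached a p below 0.05 by edgeR either, with Mucl3 lowest at 0.0812, and DESeq2 called none of the 4 genes to which it gave an adjusted p.

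Mucl3 was at 4.08 ± 4.48 CPM in DP and 12.5 ± 8.97 in Pdgfra+ (SD, n = 3), a log2 fold change of -1.61 with an SE of 0.83 (adjusted p = 0.256 by edgeR). It was lower in DP within every replicate number, with DP over Pdgfra+ at 0.507, 0.485 and 0.114. Aqp8 was at 275 ± 84.3 and 166 ± 93.5 CPM, a log2 fold change of 0.73 with an SE of 0.74 (adjusted p = 0.569), and higher in DP within every number, at 1.36, 1.91 and 2.14.

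The replicate numbers paired DP with Pdgfra+ libraries across genes. With the replicate as a block in the 6 libraries of these groups, Mucl3 passed the threshold at -1.70 (adjusted p = 0.0491), and Aqp8 reached an adjusted p of 0.0202 at 0.84, under the fold required. With the block in all 9 libraries, Mucl3 was at -1.67 (adjusted p = 0.136) and none of the 5 passed. The call for Mucl3 thus depended on how the pairing was fitted. Gkn1 had DP over Pdgfra+ at 0.993, 0.592 and 0.351, below 1 in every number though close to it in the first. With the block in the 6 libraries it was at -0.63 with an SE of 0.35 (adjusted p = 0.233 by edgeR). Gkn2 and Tff1 lay on both sides of 1, from 0.349 to 1.37 and from 0.492 to 1.78.

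In Pdgfra+, replicate 1 exceeded the mean of replicates 2 and 3, after adding 0.5 CPM to each, by 1.62 for Gkn1, 1.75 for Gkn2, 1.52 for Tff1, 0.87 for Mucl3 and 1.28 for Aqp8 on the log2 scale. These differences lay at the 99.75, 99.84, 99.64, 97.19 and 99.15 percentiles of all 14185 genes. In DP they were 2.63, 3.02, 1.89, 2.27 and 0.72, at the 99.96, 99.99, 99.73, 99.90 and 92.76 percentiles. All 5 genes were thus highest in replicate 1 of both sort gates, Mucl3 in Pdgfra+ by a small margin over replicate 3.

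Against Oct4+, all 5 genes passed as higher in DP, where 13.1% of all genes did. The list was drawn up with bulk levels known, and the filter let in Gkn1, Gkn2, Tff1 and Mucl3 through the groups where they are high, so that nothing is read from this count and the values are a description of these libraries. The log2 fold changes were 6.16 for Gkn1 (adjusted p = 0.0033), 5.99 for Gkn2 (0.0040), 3.65 for Tff1 (0.0162), 2.90 for Mucl3 (0.0295) and 5.45 for Aqp8 (0.0007), all adjusted p by edgeR. In all 5 every DP library lay above every Oct4+ library, as was the case in that direction for 30.7% of all genes. The median of all genes was -0.04. Without DP replicate 1, Tff1 (2.51, adjusted p = 0.0805) and Mucl3 (1.51, adjusted p = 0.191) no longer passed. Mucl3 also missed the threshold without Oct4+ replicate 1 (adjusted p = 0.0847), 2 (0.0670) or 3 (0.0668). Without DP replicate 1, Gkn1 and Gkn2 still passed, at 4.51 and 4.07. Without Oct4+ replicate 2, which held most of the Oct4+ reads of Gkn1, Gkn2 and Aqp8, these 3 genes were at 8.66, 7.22 and 7.87.

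Between Oct4+ and Pdgfra+, all 5 passed as lower in Oct4+, where 14.7% of all genes did, and the same limit applies to this count. The log2 fold changes were -6.51 for Gkn1 (adjusted p = 0.0019), -5.89 for Gkn2 (0.0036), -3.80 for Tff1 (0.0112), -4.52 for Mucl3 (0.0028) and -4.72 for Aqp8 (0.0011), by edgeR. In all 5 no Oct4+ library overlapped with a Pdgfra+ library, as was the case for 69.3% of all genes in either direction. Each of the 5 still passed when any single library was left out. Without Oct4+ replicate 2 the values were -9.001 for Gkn1, -7.12 for Gkn2 and -7.14 for Aqp8, and without Pdgfra+ replicate 1 they were -5.67, -4.96 and -4.14. For Tff1, the lowest value in size was -2.95, without Pdgfra+ replicate 1 (adjusted p = 0.0468 by edgeR), and for Mucl3 -4.13, without that library too. Both comparisons share the Oct4+ libraries.

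The fitted values of Gkn1 and Gkn2 rest on very few Oct4+ reads. Summed over libraries, Gkn1 had 183 reads in Pdgfra+ and 2 in Oct4+, a ratio of 106 in CPM with a counting interval of 28.8 to 878. Gkn2 had 218 and 4 reads (62.8, 24.2 to 233). Tff1 had 83 and 7 reads (13.7, 6.35 to 35.1), Mucl3 336 and 17 (22.8, 14.02 to 39.6) and Aqp8 4444 and 196 (26.1, 22.7 to 30.3). All intervals lay above 1 and, for the gastrokines, spanned about an order of magnitude or more. They cover the counting error of pooled reads only and leave out the spread between libraries, so that they are too narrow as a measure of the group difference.

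The sort gates differed in their cell types. The 10 epiblast-like genes summed to 152 to 257 CPM in Pdgfra+, 725 to 1157 in DP and 4137 to 5559 in Oct4+. All 12 endoderm markers were lower in Oct4+ than in Pdgfra+ and none passed between DP and Pdgfra+. The 10 feeder fibroblast genes summed to between 15.3 and 178 CPM over the 9 libraries, with no order of the groups in the sum. Gene by gene, 6 could be tested. In Oct4+ against Pdgfra+ 4 of them were higher and 1 lower, where 4535 of 14185 genes passed in either direction. In DP against Oct4+ 1 was higher and 3 lower, where 3933 genes passed. The 5 genes thus shared with the endoderm markers a lower level in Oct4+ than in Pdgfra+ and DP. Between those 2 gates the 12 markers summed to 60992 to 79772 CPM in Pdgfra+ and 39825 to 64871 in DP. The mean of Aqp8 was higher in DP, though its libraries overlapped and the fit without pairing did not separate the gates. Neither the epiblast-like cells nor the feeder cells were tested for a part in the levels of the 5 genes.

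Of the 37 stomach and mucus genes, 34 were in the bulk table and 11 could be tested. In DP against Oct4+, 9 were higher and 1 lower, among them Tspan8 (5.80), Muc13, a membrane mucin (4.61), and Foxa3 (3.99), on the log2 scale. In Oct4+ against Pdgfra+, 6 were lower, Muc13 (-4.84), Foxa3 (-4.82) and Tspan8 (-4.45) among them, and 1 was higher. Between DP and Pdgfra+, 1 was higher and 1 lower in DP, Atp4a (3.34) and Tff3 (-1.94), both named after their values were seen and both under 5 CPM. Tff3 had 76 reads in Pdgfra+, 17 in DP and 1 in Oct4+, while Tff2 had 6, 2 and 7 and Gkn3 none in any library.

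Of the 11 other aquaporins, 5 could be tested, and they did not go one way. Aqp3, a channel for water and glycerol, was at 88.9 CPM in Oct4+ against 2.50 in DP and 0.944 in Pdgfra+, log2 fold changes of -5.14 for DP against Oct4+ and 6.51 for Oct4+ against Pdgfra+, the opposite direction to Aqp8. In DP against Oct4+ 2 of the 5 were higher and 3 lower, and in DP against Pdgfra+ 1 was higher.

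Among the other lists, 16 of 20 visceral endoderm genes, 13 of 16 parietal endoderm genes and 6 of 9 gut epithelium genes were higher in DP than in Oct4+. Between DP and Pdgfra+, the 2 that passed among the visceral endoderm genes, Amn (2.02) and Cubn (1.91), were higher in DP, none of the parietal endoderm genes or of the 14 p53 and stress genes passed, and Lgals4 (2.78) passed among the gut genes. The 10 epiblast-like genes were all higher in DP. Of the 6 trophectoderm genes tested 1 was higher in DP, and of 6 feeder fibroblast and 6 two-cell-like genes none passed.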

How the data were processed

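Bulk values were unnormalised read counts by gene symbol, as deposited by the authors from directional single-end libraries, with aligner, build, annotation and use of strand not given in the sources used here. Single-cell values were unnormalised UMI counts in barcodes that Cell Ranger 6.1.2 called as cells, per the file headers, on an mm10 reference as the study's methods say. The list of genes, the marker lists and the tests were chosen with earlier results of these data known.

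Bulk totals ran from 8019631 to 11642571 reads in 48952 genes, and 35 blank lines without a gene or a value were left out. Libraries of a group differed beyond sampling noise (chi-square per degree of freedom 17.4 to 38.3). Genes were filtered with filterByExpr, scaled by TMM and fitted over all 9 libraries by group with edgeR 4.0.16 (R 4.3.3), with each SE taken as the log2 fold change over the root of F, and with DESeq2 1.42.0 as an alternative, where the study had used DESeq2. Deviations from group means correlated between DP and Pdgfra+ libraries of the same number at 0.293, 0.516 and 0.336 and at 0.0641 or less otherwise, so that the numbers pair these groups, as read from the counts. In the comparisons with Oct4+, the correlations of the same number lay between -0.0699 and 0.168.

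Single-cell UMIs were summed per library over endoderm cells (thresholds in the text) and scaled to 1000000 (CPM), with exact Poisson, conditional binomial and Clopper-Pearson 95% intervals. All 14179 barcodes were used and no doublet caller was run. Epiblast-like barcodes were those outside the class with at least 500 CPM of Nanog, Esrrb, Zfp42, Tdgf1 and Dppa5a together. UMIs per cell were thinned to 5000 at random with a fixed seed. Genes named beside the 5 were Pou5f1, list members at 20 CPM or more by the largest change, at most 4 per list and comparison, and the 10 genes of highest correlation, with exceptions marked in the text. The scripts were tested on simulated data. Alternatives were other filters, normalizations, thresholds and cell classes, the replicate block and leaving out each library.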

Additional observations from a re-analysis of the deposited data

How the results depend on the processing

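Between DP and Pdgfra+, the number of the 5 genes past the threshold was 0 in every setting except the replicate block on the 6 libraries, where it was 1 (Mucl3). Gkn2 turned from 0.10 to -0.27 with the block in all 9 libraries and to -0.25 in 6, without reaching the threshold, and without single libraries Gkn1 ran from -2.03 to 0.48, Gkn2 from -1.84 to 1.01 and Tff1 from -1.32 to 0.69. All genes past the threshold numbered 915 with DESeq2, 1023 without a filter and 57 to 728 without single libraries, against 552. For DP against Oct4+, 3 of the 5 genes passed under a filter of 5 CPM in 3 libraries, in the 6 libraries alone and with the replicate block on these 6, and 3 to 5 without single libraries. For Oct4+ against Pdgfra+, 3 passed under the stricter filter. That filter keeps Gkn2, Mucl3 and Aqp8 only, and the fits of the 6 libraries of DP and Oct4+ keep Gkn1, Gkn2 and Aqp8 only, so that fewer genes were tested. With the other settings the cause was not tested. DESeq2 gave Aqp8 no adjusted p.

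The share of endoderm cells with 2 or more of Gkn1, Gkn2, Tff1 and Mucl3 in -4OHT was 0.363% over all barcodes, 3.18% where Amn and Cubn were low, 0.441% at 3 UMIs or more and 0.955% after thinning, against 1.51%. In +4OHT it was 23.5%, 10.3% and 16.0% for all barcodes, 3 UMIs and thinning, and 23.6% without the 5% of barcodes with most UMIs, against 24.8%. The ratios with low Amn and Cubn, without the 5 richest barcodes and over all barcodes stand in the text, and the other 8 alternatives kept the ratio of +4OHT to -4OHT between 16.3 and 20.2 for Gkn1, 19.1 and 23.6 for Gkn2, 20.9 and 26.8 for Tff1, 7.61 and 10.6 for Mucl3 and 1.70 and 1.97 for Aqp8. Scaling by the median ratio moved the median of all genes by 0.15 on the log2 scale. The classes with low Amn and Cubn, at 3 UMIs or more, without shared barcodes and without the richest barcodes were added after the data were seen. With 1 library per condition, depth cannot stand in for replicates, and Oct4+ counts of 0 to 6 reads per library limit the bulk fold changes of Gkn1, Gkn2, Tff1 and Mucl3.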

Other observations

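When the likeness was taken to the summed level of Gkn1, Gkn2, Tff1 and Mucl3 without Aqp8, a choice made after the data were seen, Itga6 stood first of 11573 genes, with r of 0.44 over +4OHT endoderm cells and 0.33 over -4OHT endoderm cells.

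In the few -4OHT endoderm cells that held 2 or more of these 4 genes after thinning (14 cells), Aqp8 stood at 854 CPM, Itga6 at 283 and Srgn at 1857, against 158, 26.1 and 1291 in the 1405 cells with none. The 12 endoderm markers summed to 27239 CPM in these 14 cells and to 15106 in the 1405. The corresponding +4OHT cells (1023 cells) had 786 CPM of Aqp8, 190 of Itga6 and 2072 of Srgn. These are values of a handful of cells in 1 library and were not tested.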
